A study of Mus musculus with 16 samples.

Results

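The miR-290 to miR-295 cluster was represented on the arrays by 9 mature miRNAs: mmu-miR-290-5p, mmu-miR-290-3p, mmu-miR-291a-5p, mmu-miR-291a-3p, mmu-miR-292-5p, mmu-miR-292-3p, mmu-miR-293, mmu-miR-294 and mmu-miR-295. The prefix for mouse is left out below. The members were taken by name, and they are 9 of the 611 mouse miRNAs that the array names. Both arms of the hairpin are present for miR-290, miR-291a and miR-292. The names miR-293, miR-294 and miR-295 stand for the 3p arms of their hairpins.

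The cluster is transcribed as a single primary RNA in embryonic stem cells and the early embryo, and it is switched off as cells differentiate. Most of its 3p arms carry a shared seed, the stretch near the 5′ end through which a miRNA recognizes its targets, and these arms are known in mouse embryonic stem cells for promoting passage through the cell cycle. The 5p arms carry other seeds and are less well described. The miR-302 cluster, active somewhat later in the embryo, carries the same kind of seed, and the miR-17 family, which is broadly expressed, carries a shifted form of it.

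The study measured miRNAs in primary mouse embryonic fibroblasts (MEFs) deficient in Ercc1, a subunit of a DNA repair endonuclease, and in wild-type (WT) MEFs, to find miRNAs that change as the cells senesce. The 8 groups, with 2 arrays each, were Ercc1-/- (KO in the plots) and WT MEFs at passage 7 (P7) in 20% O2, Ercc1-/- and WT MEFs at P7 in 3% O2, Ercc1-/- and WT MEFs at passage 3 (P3) in 20% O2, and Ercc1-/- and WT MEFs at P3 in 3% O2. All cells were primary cultures from embryos of a mixed FVB/n and C57Bl/6 background, and the labels name no treatment besides oxygen. The methods state that each sample had 2 independent cell lines, and the labels do not say which lines recur between groups. The paper describes serial passaging, and parallel cultures of the same Ercc1-/- cells in 20% and 3% O2. Arrays of a genotype may therefore share cell lines. A miRNA array does not measure the deleted Ercc1 gene, so genotype labels could not be checked on it. Replicate 1 of every group lies on slide 1 and replicate 2 of every group on slide 2.

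The sequences of 8 of the 9 members were found in RefSeq (build GRCm38.p6), and they are shown because members that share a seed differed in their calls. All lie on the plus strand of chromosome 7 within chr7:3218626-3220841, from the start of the Mir290a hairpin to the end of the Mir295 hairpin. Each mature sequence is an arm of a hairpin and is printed 5′ to 3′ with the seed, bases 2 to 8, in capitals.
miR-290-5p (chr7:3218639-3218660): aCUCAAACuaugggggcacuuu
miR-292-5p (chr7:3219200-3219221): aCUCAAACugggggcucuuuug
miR-291a-5p (chr7:3218932-3218953): cAUCAAAGuggaggcccucucu
miR-290-3p (chr7:3218674-3218697): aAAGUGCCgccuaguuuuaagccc
miR-291a-3p (chr7:3218968-3218989): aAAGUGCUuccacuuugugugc
miR-294 (chr7:3220691-3220712): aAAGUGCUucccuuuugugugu
miR-295 (chr7:3220815-3220837): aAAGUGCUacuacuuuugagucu
miR-293 (chr7:3220390-3220411): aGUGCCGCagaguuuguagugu

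MiR-291a-3p, miR-294 and miR-295 share the seed AAGUGCU, and miR-290-3p has AAGUGCC, so that 4 of the 8 sequences read AAGUGC from base 2. Of all 1679 mature sequences in the RefSeq set, 0.476% do. MiR-291a-3p and miR-294 share their first 11 bases and differ in 22 aligned positions by A12C, C13U and C22U, with positions counted from 1 at the 5′ end and the base of miR-291a-3p first. MiR-290-5p and miR-292-5p share the seed CUCAAAC and their first 9 bases, and both hold the run GGGGG, which occurs in 2.38% of the RefSeq set. Of this pair, only miR-290-5p was above background on any array.

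A miRNA was called above background on an array when, for any of its probes, at least a share of 0.5 of the spots was marked by the image software as well above background. By this rule 4 of the 9 members were above background on at least 1 array, where 50.4% of the 611 mouse miRNAs were. MiR-290-5p was above background on 9 of 16 arrays. Of all mouse miRNAs, 33.6% reached at least 9 arrays. MiR-290-3p, miR-291a-5p and miR-294 were above background on 1 array each, and miR-291a-3p, miR-292-5p, miR-292-3p, miR-293 and miR-295 on none. Each member had 20 spots per array in 2 to 4 probes.

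**Figure D1:**
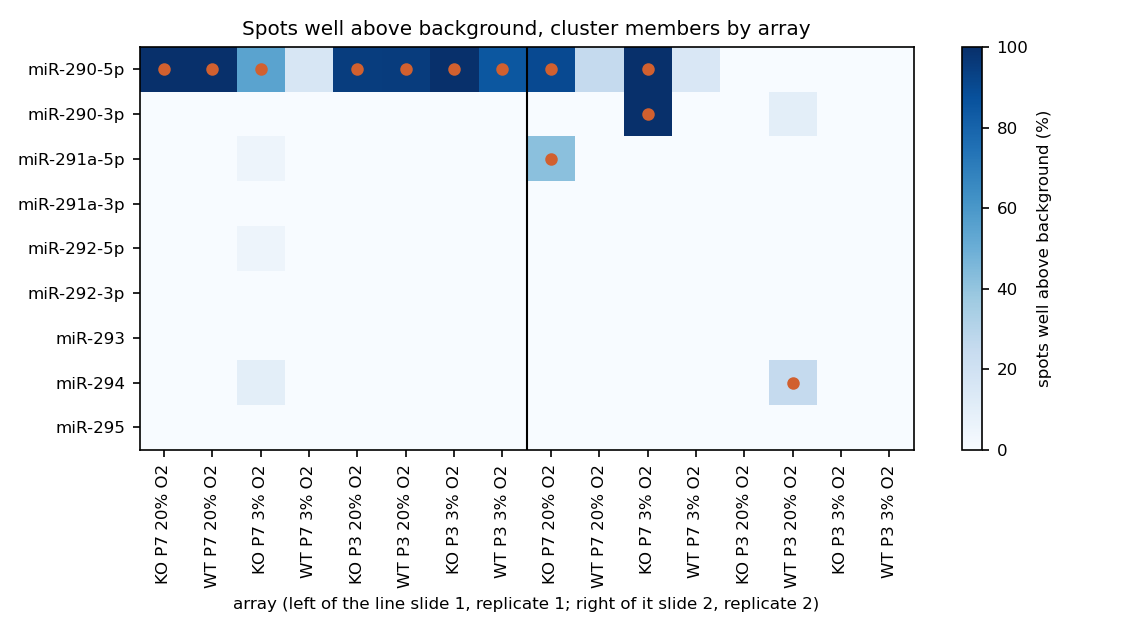
Share of each member's spots marked well above background (colour, in %) on each of the 16 arrays, with slide 1 left of the line and slide 2 right of it; orange dots mark the calls above background. MiR-290-5p holds 9 of the 12 dots, and the other 3 lie on slide 2, each in a different member and array.

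Counted over all arrays, 173 of 317 spots of miR-290-5p were well above background (54.6%). The shares were 6.92% for miR-290-3p, 2.87% for miR-291a-5p and 2.20% for miR-294. MiR-292-5p had 1 such spot of 317, and miR-291a-3p, miR-292-3p, miR-293 and miR-295 had 0 of 316, 311, 310 and 310 spots. For background, 0.0886% of the spots of mouse miRNAs below background on every array were so marked, and 0 of 6774 spots of negative control sequences.

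The labelled cell type was checked on marker miRNAs. All 7 miRNAs listed as abundant in fibroblasts and other mesenchymal cells (miR-199a-3p, miR-199a-5p, miR-214, miR-143, miR-145, miR-21 and miR-22) were above background on 15 or 16 arrays, and none of the 5 epithelial markers was on any. Of the blood markers, miR-223 was above background on 9 arrays, miR-142-3p on 5, miR-142-5p on 1, and miR-451 and miR-150 on none. Of the skeletal muscle markers, miR-206 was above background on 2 arrays and the other 3 on none. The 8 listed arms of the miR-302 cluster, which marks pluripotent cells together with the members, were below background on all 16 arrays. Among the 39 viral miRNAs of the array, for which uninfected mouse cells have no template, 7 (17.9%) were above background on at least 1 array, with 2 to 6 of them on any 1 array.

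MiR-290-5p, the 5p arm of the first hairpin, was read by 4 probes. Its processed signal (the spot intensity after background subtraction, here before any scaling between arrays) in replicates 1 and 2 was 26.3 and 16.5 in Ercc1-/- P7 MEFs in 20% O2, against 19.9 and 10.7 in WT P7 MEFs in 20% O2. It was 15.7 and 15.3 in Ercc1-/- P7 MEFs in 3% O2, against 9.97 and 7.94 in WT P7 MEFs in 3% O2. On both slides and in both oxygen levels the Ercc1-/- array was the brighter of its pair before scaling, at P7 and also at P3. The brightness of whole arrays also differed within these pairs, and scaled values are given below. At P3 the signal in 20% O2 was 20.8 and 8.81 in Ercc1-/- MEFs, against 18.2 and 3.73 in WT MEFs. In 3% O2 at P3 it was 17.8 and 6.33 in Ercc1-/- MEFs, against 13.9 and 5.23 in WT MEFs. Slide 1 was brighter than slide 2 in every group, and the groups overlapped.

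The calls of miR-290-5p divided by slide, and calls over all mouse miRNAs were also fewer on slide 2. The mean number of mouse miRNAs above background per array was 214.2 at P7 and 250 at P3 on slide 1. On slide 2 the means were 149.5 and 178. On slide 1 the call of miR-290-5p held for 3 of 4 P7 arrays and 4 of 4 P3 arrays, the exception being WT P7 MEFs in 3% O2 with 3 of 19 spots. On slide 2 it held for 2 of 4 P7 arrays, both Ercc1-/-, and for 0 of 4 P3 arrays. On these 4 P3 arrays of slide 2, 0 of 20 spots each were well above background. Over both slides 6 of the 8 arrays from Ercc1-/- cells and 3 of the 8 from WT cells had the call, and by passage it was 5 of 8 at P7 and 4 of 8 at P3. Ercc1-/- P7 MEFs in 20% O2 and in 3% O2 were the only groups with both arrays above background, which made miR-290-5p the only member that entered the tests. It therefore entered only through Ercc1-/- P7 groups, in which its signal was high. A filter of this kind favours a higher value at P7 and in Ercc1-/- MEFs. It likewise favours a larger passage change in Ercc1-/- than in WT MEFs.

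To compare groups, the arrays were brought to a common mean log2 signal of the 57 mouse miRNAs above background on all 16 arrays, and scaled signals under 2.82 (1.50 on the log2 scale) were set to that floor. The scaled log2 signal of miR-290-5p in replicates 1 and 2 was 3.92 and 6.61 in Ercc1-/- P7 MEFs in 20% O2, against 3.38 and 4.70 in WT P7 MEFs in 20% O2. It was 4.43 and 5.24 in Ercc1-/- P7 MEFs in 3% O2, against 2.74 and 3.37 in WT P7 MEFs in 3% O2. The highest value belonged to Ercc1-/- P7 20% O2 replicate 2, which was also the dimmest array by the scaling miRNAs, with a mean of 5.80 on the unscaled log2 scale. At P3 in 20% O2 the scaled values were 2.97 and 2.99 in Ercc1-/- MEFs, against 3.21 and 3.28 in WT MEFs. At P3 in 3% O2 they were 2.84 and 2.67 in Ercc1-/- MEFs, against 2.85 and 2.10 in WT MEFs. By the mean of the scaling miRNAs, the Ercc1-/- arrays at P3 in 20% O2 read 9.77 and 8.51, against 9.34 and 6.98 in WT. At P3 in 3% O2 the means were 9.68 and 8.35, against 9.31 and 8.65 in WT. At P7 the Ercc1-/- array was the dimmer of every pair by this mean. On slide 2 all 4 P7 arrays were above all 4 P3 arrays in scaled signal, and on slide 1 the P7 and P3 arrays overlapped through WT P7 MEFs in 3% O2.

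**Figure D2:**
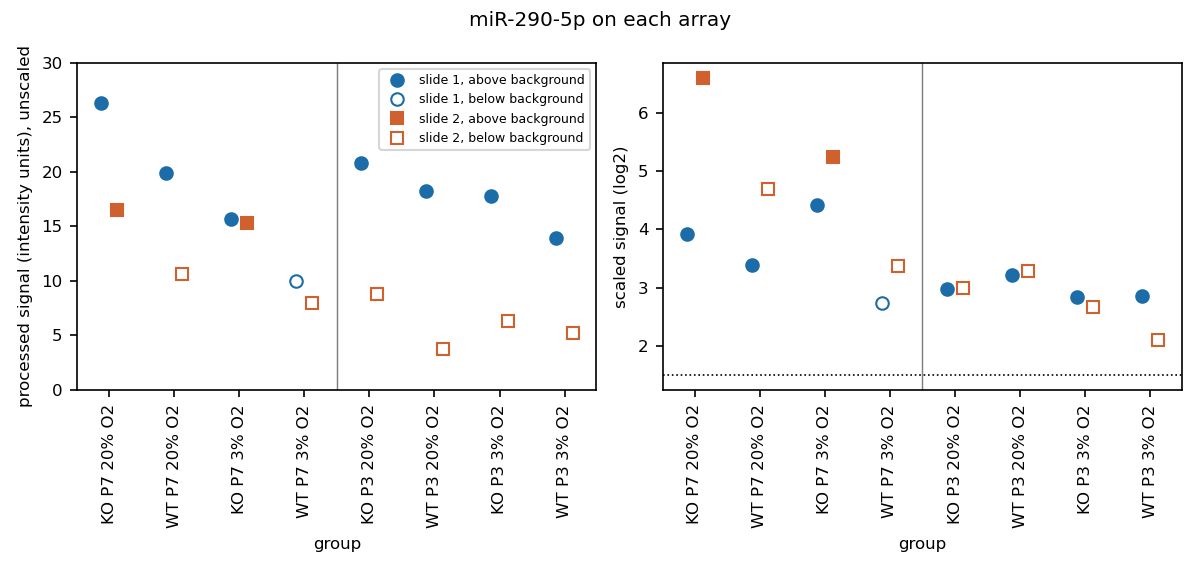
MiR-290-5p on each array by group, as unscaled processed signal in intensity units (left) and as scaled log2 signal (right, with the floor of 1.50 dotted); circles are slide 1, squares are slide 2, and filled symbols are above background. On the left slide 1 lies above slide 2 in every group, and on the right the 2 arrays of Ercc1-/- P7 MEFs in 20% O2 lie at 3.92 and 6.61.

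The comparison of passages asks which miRNAs differ between late and early passage. Its average includes cultures at the lower oxygen level, where the paper describes senescence as delayed or prevented. It therefore does not measure the approach to senescence alone. Averaged over genotype and oxygen, miR-290-5p was higher at P7, with a mean scaled log2 signal of 4.30 at P7 and 2.87 at P3 (n = 8 each). The change was 1.43 on the log2 scale (SE 0.40, 95% interval 0.55 to 2.31, limma adjusted p = 0.0131), which is 2.70-fold. Tested without the filter, among all 611 mouse miRNAs, the same change did not pass the threshold (limma adjusted p = 0.0521). It was 0.65 on slide 1 and 2.22 on slide 2. Differences between replicates correlated among groups of the same passage (median r = 0.607 for P3 and 0.811 for P7). The fit treats the arrays as independent, so its SE and p-value may overstate the precision. In this comparison 22.6% of the 235 miRNAs tested were called higher and 32.3% lower (54.9% in either direction), at an adjusted p under 0.05, and the median change of all tested was -0.39. A call of this kind was therefore common among the miRNAs tested, and miR-290-5p lay 1.82 above their median. The 4 probes of miR-290-5p gave changes of 1.28 to 1.78.

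The size of the change depended on how arrays were put on 1 scale. The mean unscaled log2 signal of the 57 scaling miRNAs was 7.90 at P7 and 8.82 at P3, a difference of -0.92, which was -0.70 on slide 1 and -1.14 on slide 2. With no scaling the change of miR-290-5p was 0.51 (limma adjusted p = 0.44), against a median of -1.14 over all tested, and it then lay 1.65 above that median. The call was also lost when the mean of all mouse miRNAs set the scale (0.92, limma adjusted p = 0.063) and with the total signal of the image software (1.03, limma adjusted p = 0.279). With normexp, a model-based background correction, the change was 0.54 (limma adjusted p = 0.229), only 0.20 above a median of 0.34. The part of the lower brightness of the P7 arrays in the change was not tested, and more cells with the miRNA cannot be told apart from more of it per cell.

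Viral probes were set beside this change. All 7 viral miRNAs above background on at least 1 array (3 of them at P7 only) had a higher mean scaled log2 signal at P7, by 0.28 to 2.59 with a median of 1.11, and 2 of the 7 had a larger difference than the 1.43 of miR-290-5p. The viral mcmv-miR-M23-1-3p averaged 3.78 at P7 and 1.81 at P3, and mghv-miR-M1-2 averaged 4.55 at P7 and 3.37 at P3 (n = 8 each). On Ercc1-/- P7 20% O2 replicate 2, where miR-290-5p was highest, 6 of the 7 were highest too, and in the same number the difference was larger on slide 2 than on slide 1. With no scaling, 6 of the 7 were higher at P7, by up to 2.07, with a median over the 7 of 0.27. Of all 39 viral miRNAs, 11 were higher at P7 and 5 lower on the scaled log2 scale, and 23 lay at the floor on every array. Choosing the 7 by their calls, which 3 had at P7 only, favours higher values at P7. The viral mcmv-miR-M23-1-5p and mcmv-miR-m88-1, above background on all 16 arrays, changed by 0.0574 and 0.0797 with no scaling. The unscaled change of miR-290-5p was 0.51. A higher scaled signal at P7 was also measured on probes whose targets these cells should lack, and the cause was not tested.

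**Figure D3:**
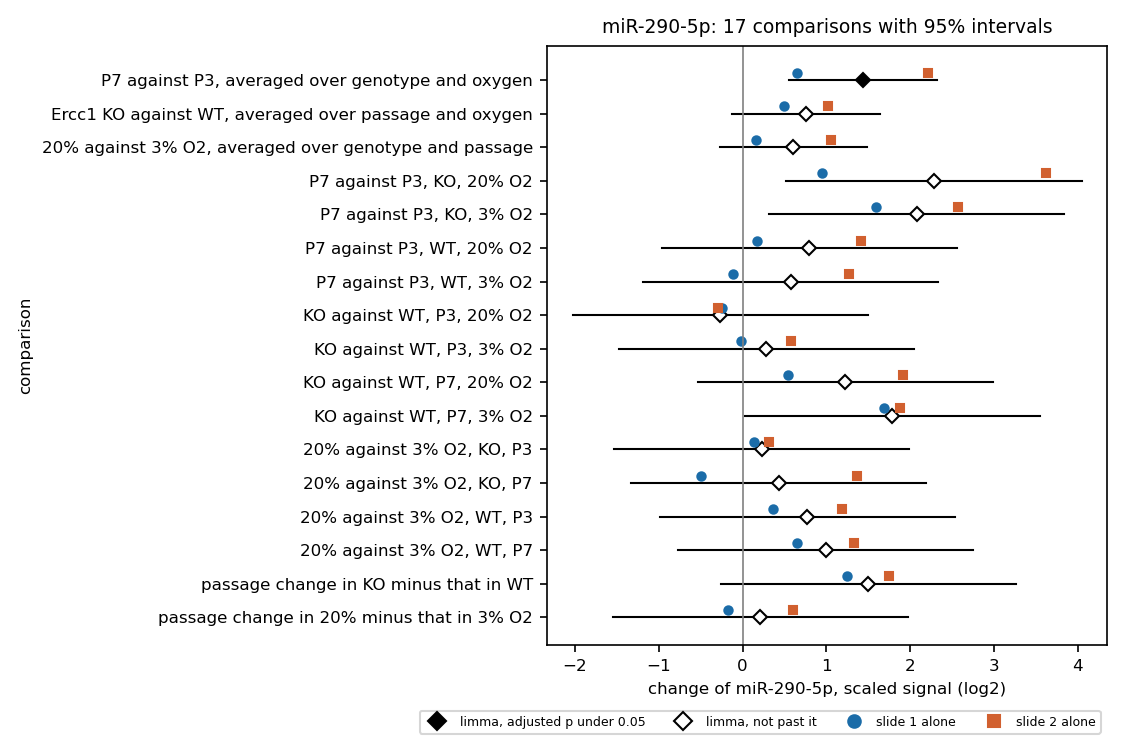
Change of miR-290-5p on the scaled log2 scale in 17 comparisons, with 95% intervals of the limma fit; the filled diamond is the 1 comparison past an adjusted p of 0.05, and coloured symbols give slide 1 and slide 2 alone. The averaged passage change of 1.43 is the only filled diamond, and slide 2 lies right of slide 1 in 16 of the 17 comparisons.

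Within genotype and oxygen, the passage change of miR-290-5p was 2.28 in Ercc1-/- MEFs in 20% O2 (SE 0.80, limma adjusted p = 0.099) and 2.08 in Ercc1-/- MEFs in 3% O2 (SE 0.80, limma adjusted p = 0.117). In WT MEFs it was 0.79 in 20% O2 (limma adjusted p = 0.587) and 0.58 in 3% O2 (limma adjusted p = 0.745), where in 3% O2 no P7 array was above background. None of the 4 changes passed the threshold, and few miRNAs did in these comparisons (1.28% of those tested in 20% O2 in either genotype, 0% in 3% O2 in either). The passage change in Ercc1-/- MEFs minus that in WT MEFs was 1.50 (SE 0.80, 95% interval -0.26 to 3.26, limma adjusted p = 0.769), with 1.24 on slide 1 and 1.75 on slide 2, and it did not pass either. The passage change in 20% O2 minus that in 3% O2 was 0.21 (95% interval -1.55 to 1.97, limma adjusted p = 0.996). In both of these differences 0% of the miRNAs tested were called.

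These changes depended on the arrays of Ercc1-/- P7 MEFs in 20% O2. With either of them left out the group is 1 array, which is assumed to vary like the arrays of the other groups. Only sizes are therefore given. Without Ercc1-/- P7 20% O2 replicate 1, the passage change in Ercc1-/- MEFs was 3.62 in 20% O2 and stayed at 2.08 in 3% O2. The difference between the genotypes was then 2.17. Without replicate 2 of the same group, the change in 20% O2 was smaller, at 0.94. The 2 arrays of this group differed by more in miR-290-5p than those of any other group, with an SD of 1.90 on the log2 scale against SDs of 0.0153 to 0.929 elsewhere.

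The comparison of genotypes asks what loss of Ercc1 changes. Averaged over passage and oxygen, miR-290-5p had a mean scaled log2 signal of 3.96 in Ercc1-/- MEFs and 3.20 in WT MEFs (n = 8 each), a difference of 0.76 (SE 0.40, limma adjusted p = 0.918) that did not pass the threshold. In this comparison 1.7% of the miRNAs tested were called. Arrays of a genotype may share cell lines, and the fit treats them as independent, so this SE may overstate the precision. The filter described above favours a higher value in Ercc1-/- MEFs here as well. At P7 the difference was 1.22 in 20% O2 (limma adjusted p = 0.78). In 3% O2 at P7 both Ercc1-/- arrays and no WT array were above background. There Ercc1-/- MEFs had a 3.44-fold higher signal by the group means (limma adjusted p = 0.988). The fold uses the measured values of the WT arrays and makes no allowance for the detection limit. The fitted change of 1.78 had a 95% interval of 0.023 to 3.54 on the log2 scale, and with 1 array left out it lay between 1.38 and 2.19. At P3 the difference was -0.27 in 20% O2 and 0.28 in 3% O2 (limma adjusted p = 1 for both). The shares of all tested that were called in these single comparisons were 0.426% and 0% at P7 and 0.851% and 0% at P3, with 20% O2 first. Without Ercc1-/- P7 20% O2 replicate 1 the averaged difference was 1.09 and that at P7 in 20% O2 was 2.57. Without replicate 2 of that group the difference at P7 in 20% O2 was -0.12.

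The comparison of oxygen levels asks what oxidative stress in culture changes. Averaged over genotype and passage, the mean scaled log2 signal was 3.88 in 20% O2 and 3.28 in 3% O2 (n = 8 each), a difference of 0.60 (SE 0.40, 95% interval -0.28 to 1.48, limma adjusted p = 1). In this comparison 0.851% of the miRNAs tested were called. The same cell lines may lie on both sides of it, and the fit does not pair them. The difference lay between 0.23 and 0.99 in the 4 combinations of genotype and passage, and none of them passed the threshold, with 0% of all tested called in each.

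MiR-290-3p, the other arm of the same hairpin and a carrier of the AAGUGC stretch, was above background on a single array, Ercc1-/- P7 3% O2 replicate 2. Its unscaled signal there was 17.3, and all 4 probes had 5 of 5 spots well above background. The next highest signals were 12.0 in WT P3 20% O2 replicate 2, with 2 spots well above background, and 7.37 in Ercc1-/- P3 20% O2 replicate 2. On the other 13 arrays it lay between 2.87 and 6.34. The single array stands far from its replicate, which read 4.50, and no group had both arrays above background, so the arm was not tested. The member exceeded the highest mean of the negative control sequences on all 16 arrays without being called on 15 of them.

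MiR-294, the abundant 3p arm of this cluster in embryonic stem cells, was above background only on WT P3 20% O2 replicate 2, at an unscaled signal of 15.5. The call came from 1 of its 3 probes, with 4 of 7 spots well above background. Its signal was 10.5 on Ercc1-/- P3 20% O2 replicate 2, 5.78 on Ercc1-/- P7 3% O2 replicate 1, and between 1.10 and 4.12 on the other 13 arrays. The 2 arrays with the highest signals of miR-294 had the widest negative controls, with an SD over negative control spots of 2.85 and 2.79, where the other 14 arrays had 1.73 to 2.45.

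WT P3 20% O2 replicate 2 held the highest signal of 5 of the 9 members. MiR-291a-3p read 4.83 there, miR-292-3p 2.86, miR-293 0.468 and miR-295 1.67, all below background, and miR-294 was the fifth. All 5 are 3p arms. The same array held the highest signal of 23.1% of the 303 mouse miRNAs that were below background on every array. The part of this raised background in the call of miR-294 was not tested.

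**Figure D4:**
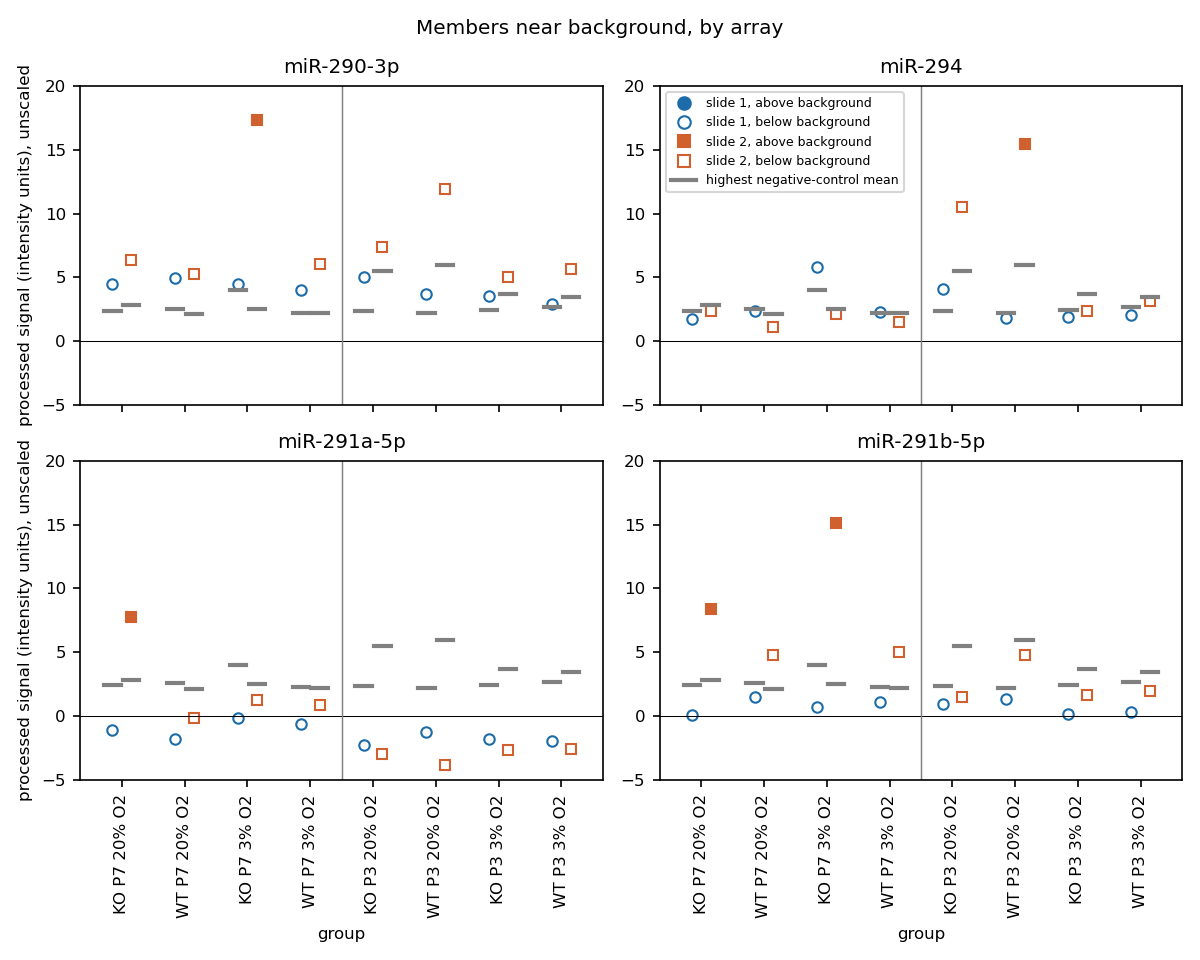
Unscaled processed signal (intensity units) of miR-290-3p, miR-294, miR-291a-5p and its close relative miR-291b-5p by group; circles are slide 1, squares are slide 2, filled symbols are above background, and grey bars give the highest mean of a negative control sequence on the same array. All 5 filled symbols lie on slide 2.

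MiR-291a-5p was above background only on Ercc1-/- P7 20% O2 replicate 2, at an unscaled signal of 7.79, where 8 spots in 3 probes were well above background and 1 probe had 4 of 4 spots. The second highest array was Ercc1-/- P7 3% O2 replicate 2 at 1.25, and the median over the 16 arrays was -1.51, below the mean of the negative controls. On slide 2 the 4 P7 arrays ranged from -0.184 to 7.79 and the 4 P3 arrays from -3.86 to -2.56, and the ranges do not overlap. On slide 1 they ranged from -1.78 to -0.13 at P7 and from -2.24 to -1.23 at P3, and they overlap.

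MiR-291b-5p, an arm of the cluster outside the 9 members, differs from miR-291a-5p only by C1G and U22C, with positions counted from 1 at the 5′ end and the base of miR-291a-5p first. The pair is shown because both were above background on Ercc1-/- P7 20% O2 replicate 2, and whether a probe for one also reads the other was not tested.
miR-291a-5p (chr7:3218932-3218953): CaucaaaguggaggcccucucU
miR-291b-5p (chr7:3219494-3219515): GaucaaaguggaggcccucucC
The capitals mark the 2 positions that differ. MiR-291b-5p was above background on Ercc1-/- P7 3% O2 replicate 2, at an unscaled signal of 15.1, and on Ercc1-/- P7 20% O2 replicate 2, at 8.42. On slide 2 it ranged from 4.75 to 15.1 on the 4 P7 arrays and from 1.47 to 4.74 on the 4 P3 arrays, and on slide 1 it stayed between 0.0559 and 1.52. The other 4 listed arms of the cluster (miR-291b-3p, miR-293*, miR-294* and miR-295*) were below background on all 16 arrays.

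The 5p and 3p arms were then compared within each hairpin by their calls and the direction of their changes, since the levels of different probes cannot be set against each other. Both arms of miR-290 were above background on 1 array, Ercc1-/- P7 3% O2 replicate 2. The 5p arm alone was above background on 8 arrays, the 3p arm alone on 0, and neither on 7. In 3 of the 12 comparisons between single groups both arms had at least 1 array above background. All 3 share the Ercc1-/- P7 arrays in 3% O2, of which the 3p arm was above background on only 1. It was on none in the groups set against them, so its changes rest on 1 array. In these cells at P7 against P3 the change on the log2 scale was 2.08 for the 5p arm and 2.1 for the 3p arm. Against WT P7 MEFs in 3% O2, where neither arm was above background, the difference was 1.78 for each arm. In 20% against 3% O2 in Ercc1-/- P7 MEFs the difference was 0.43 for the 5p arm and -0.664 for the 3p arm. With the 3p arm above background on 1 array, the sizes of the changes of the arms could not be compared.

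Over all 12 comparisons the changes of the miR-290 arms had the same sign in 10 and opposite signs in 2, with most values of the 3p arm below background. The same count was 3 within slide 1, where the 3p arm lay at the floor on 7 of 8 arrays. Both arms share the scaling factor of an array, which can favour the same sign. Before scaling, the Pearson r between the miR-290 arms was -0.243 over the 16 arrays, 0.489 on slide 1 and 0.284 on slide 2. For miR-291a the 5p arm alone was above background on 1 array and neither on 15. For miR-292 neither arm was above background on any array. In 9 of the 12 comparisons of miR-291a, and in 9 of those of miR-292, 1 or both arms showed no change at all because they lay at the floor, so whether these arms move together could not be read from these arrays.

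Among the 234 other miRNAs tested, the 5 whose scaled log2 signals were most like those of miR-290-5p over the 16 arrays were miR-680 (Pearson r = 0.968), miR-721 (0.957), miR-21* (0.945), miR-877 (0.940) and miR-125a-3p (0.939), where the median r over the 234 was -0.455. All values share the scaling factor of their array. MiR-21* is the minor arm of the hairpin of miR-21. Having been chosen for this likeness, the 5 had to share the higher values of miR-290-5p at P7, so their averaged passage changes are given with no test: 2.32 for miR-680, 2.00 for miR-721, 1.77 for miR-21*, 1.51 for miR-877 and 1.90 for miR-125a-3p. Like miR-290-5p, each had a larger change on slide 2 than on slide 1.

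**Figure D5:**
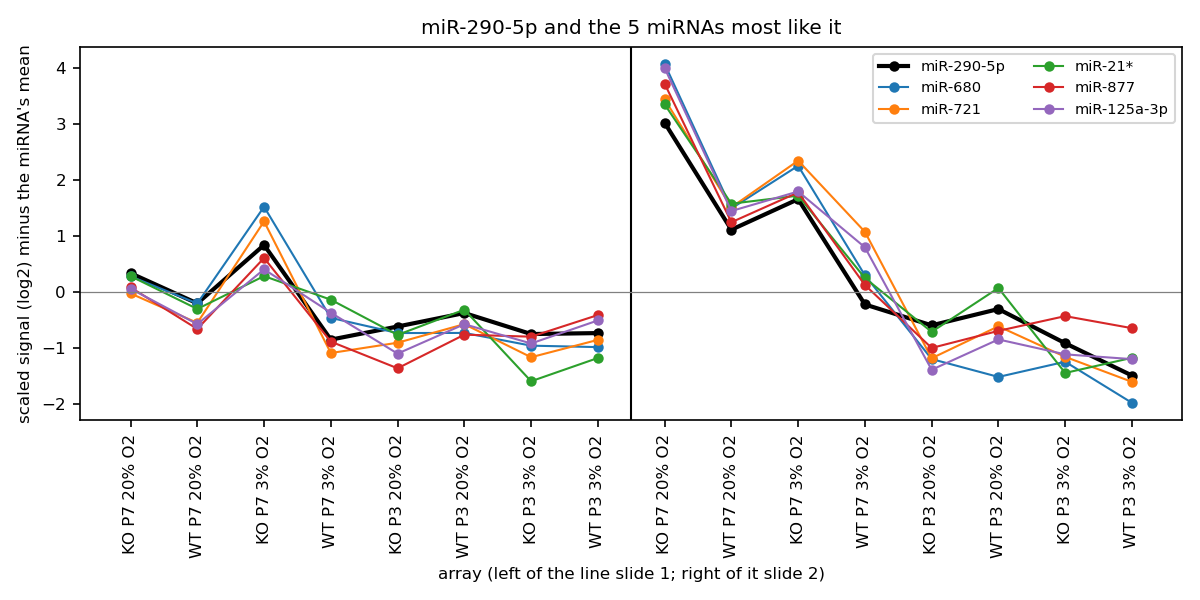
Scaled log2 signal of miR-290-5p (black) and of the 5 miRNAs with the most similar pattern, each minus its own mean over the 16 arrays, with slide 1 left of the line and slide 2 right of it. All 6 peak on Ercc1-/- P7 20% O2 replicate 2.

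The 5 come from hairpins elsewhere in the genome and share no seed with miR-290-5p. Their sequences (RefSeq, GRCm38.p6) are shown with the longest run of G in capitals, a feature noticed after the 5 were found.
miR-290-5p (chr7:3218639-3218660, plus strand): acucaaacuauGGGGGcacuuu
miR-680 (3 loci, among them chr6:129691541-129691561, plus strand): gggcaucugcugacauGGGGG
miR-721 (chr5:136375777-136375797, minus strand): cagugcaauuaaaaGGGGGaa
miR-21* (chr11:86584082-86584103, minus strand): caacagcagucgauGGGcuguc
miR-877 (chr17:35960795-35960814, minus strand): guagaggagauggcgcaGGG
miR-125a-3p (chr17:17830855-17830876, plus strand): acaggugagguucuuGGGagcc
All 6 hold GGG, which 30.6% of the RefSeq set holds, and miR-290-5p, miR-680 and miR-721 hold GGGGG. MiR-292-5p also holds GGGGG and was below background on all 16 arrays. What these runs do to labelling or hybridization was not tested.

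The miR-17 family, whose seed is related to that of the 3p arms, was detected on most arrays. Of its 5 members on the array, miR-106b was above background on 15 arrays, miR-93 on 14, miR-20a on 12, miR-20b on 9 and miR-17 on none. In the averaged passage comparison, 2 of the 4 tested were lower at P7, miR-20a by a change of -2.01 (limma adjusted p = 0.0201) and miR-20b by -1.42 (limma adjusted p = 0.03), where 32.3% of all tested were called lower. The changes of miR-93 (-0.72) and miR-106b (-0.30) did not pass. The median change of the 4 was -1.07, beside -0.39 over all tested. Neither family had a member called in the comparisons of genotypes or oxygen levels averaged over the other factors.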

How the data were processed

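Total RNA of 16 MEF samples was hybridized, 1 sample per array, to one-colour Agilent mouse miRNA arrays of 13715 spots. The deposited intensity values were made by the authors with Agilent Feature Extraction (10.7.1.1 per the file headers), which subtracts background per spot and marks spots well above it. A deposited table of the series, with an unscaled summed intensity for each miRNA, served as an alternative. Spots marked as outliers were left out (49 of the 2880 member spots), and the rest were averaged per probe and then per miRNA. No spot was saturated. The arrays differed in depth, with 117 to 257 mouse miRNAs called above background.

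Arrays were scaled over the 57 miRNAs above background on all 16, floored and log2 transformed. A miRNA entered the test when some group had it above background on both arrays (235 did), and limma 3.58.1 (R 4.3.3) fitted the group means on all 16 arrays together (8 residual and 3.58 prior degrees of freedom), in 17 comparisons, with Benjamini-Hochberg adjustment within each at 0.05. The fit was tested on simulated data, but no outcome of that test is given here, so it does not vouch for the p-values. Where the dimmer side had no array above background, the change given is that of the measured and floored values, and it is not a bound. With 2 arrays per group precision is low, and the p-values measure only the spread between these arrays.

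The members, lists and tests were chosen with earlier results of these data known. The miRNAs named are the 9 members, the 5 miRNAs most like each member above background on at least 8 arrays, and up to 4 tested miRNAs of each list with the largest passage change. Alternatives changed the scaling, background correction, summary, floor, filter, detection rule and design, or left out each array in turn. Mature sequences were taken from RefSeq by the present names of the arms.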

Additional observations from a re-analysis of the deposited data

How the results depend on the processing

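The count of members called in the averaged passage comparison, 1 in the fit described, was 0 without scaling, when scaled by the mean of all mouse miRNAs, with normexp background correction (run on the median spot signal), with the total signal of the software, with no filter on dim miRNAs, and with only the miRNAs above background on all arrays, where no member is tested. The change of miR-290-5p was then 0.51, 0.92, 0.54, 1.03 and 1.43 in the first 5 of these, with limma adjusted p of 0.44, 0.063, 0.229, 0.279 and 0.0521. Tests of 611 miRNAs instead of 235 gave the last of these. With normexp the change lay 0.20 above the median of all tested, against 1.44 to 2.00 with every other setting on the same miRNAs. The share of calls that were higher moved with the scale, with 22.6% of the miRNAs tested higher and 32.3% lower in the fit described, 2.55% and 16.2% without scaling, 11.1% and 24.3% when scaled by the mean of all miRNAs, and 27.2% and 25.5% with the 75th percentile of the 57. Leaving out each array in turn, the change lay between 1.10 and 1.77. Each of these fits leaves 1 group with a single array, so counts of members called in them are not given. Without Ercc1-/- P7 20% O2 replicate 1, miR-291a-5p also entered the tests. It did so through replicate 2 of that group, the only array on which it was above background. Replicate number and slide coincide. Differences between replicates correlated across miRNAs among groups of the same passage (median r = 0.607 for P3 and 0.811 for P7) but not between passages (0.034), so the number was not taken as a pairing. With the replicate block the averaged passage change was 1.43 (limma adjusted p = 0.00661), the count of members called was 1 there and 0 in the other 16 comparisons, and the miRNAs called in the averaged passage comparison came to 68.1%, against 54.9% without it.

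Directions turned only in changes that were not past the threshold in the fit described. Without Ercc1-/- P7 20% O2 replicate 1, the genotype difference at P7 in 20% O2 was 2.57. The difference of passage changes between genotypes was then 2.17. The genotype difference at P3 in 20% O2 (-0.27) was 0.72 without scaling, 0.40 when scaled by the mean of all miRNAs, 0.17 with the 75th percentile of all, 0.51 after quantile normalization and 1.61 with the total signal, which also gave -0.0351 at P7 in 20% O2 and -1.40 for the difference of passage changes between genotypes. Between oxygen levels, WT P3 MEFs gave -0.0497 with no scaling and -0.0687 after quantile normalization, and normexp gave -0.0187 in Ercc1-/- P3 MEFs, -0.0642 in Ercc1-/- P7 MEFs and -0.13 for the difference of passage changes. With 1 array left out the range was -0.10 to 0.66 for the genotype difference at P3 in 3% O2, -0.12 to 2.57 for that at P7 in 20% O2, -0.91 to 1.77 for oxygen in Ercc1-/- P7 MEFs and -0.46 to 0.88 for the difference of passage changes between oxygen levels. The cause was not tested. By the software's own detection call miR-290-5p was above background on 14 arrays, miR-290-3p on 4 and miR-294 on 3, and with every probe required 2 members were above background, without miR-291a-5p and miR-294. The same-sign count of the miR-290 arms was 3 within slide 1. That of miR-291a was 0 with no scaling, 5 with the series table and 0 within slide 1, and that of miR-292 was 0 with no scaling and 0 within slide 1.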
